A study of Mus musculus with 6 samples.

Results

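The 42 genes described here encode lysosomal proteins and the proteins that build autophagosomes. They were taken from a named list, and each is represented by the probe set that carries its symbol alone and has the highest mean over the 6 arrays. All 42 were found among the genes named on the array, and all 42 passed the filter on low signal. Creg1 was picked by its lower knockout signal in these same data, so its values are a description and carry no test, and the other 41 were named for their function. The samples were left ventricles of male mice of C57BL/6 background, 3 labelled MURC knockout (11, 11 and 13 weeks old) and 3 labelled wild type (13, 13 and 12 weeks old). Cavin4 is the gene for MURC, which in muscle helps to form caveolae, small pits of the plasma membrane. The labels give neither the design of the knockout allele nor whether the samples are different animals, and the p-values therefore cover the spread among samples, which may be technical.

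Autophagy is the route by which a cell encloses worn proteins and organelles in a double membrane, the autophagosome, and delivers them to the lysosome for digestion. The lysosome is an acidic compartment whose soluble hydrolases degrade proteins, glycans and lipids and whose membrane proteins protect it and export the products. Heart muscle cells are long-lived and rarely divide, and inherited loss of lysosomal proteins such as LAMP2, acid alpha-glucosidase or alpha-galactosidase A is known to cause cardiomyopathy in humans. The transcription factor TFEB activates many of these genes through a short promoter element whose centre is the word CACGTG.

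Promoter windows are shown for Creg1, which differed most between genotypes among the 42, and for 4 lysosome genes that hold the word CACGTG and differed in direction. Of these, Ctsd was higher in the knockout, Gla and Mcoln1 were lower, and Lamp1 overlapped between genotypes. Each line gives the 250 bases before the annotated start from RefSeq, build GRCm38.p6, 5′ to 3′ on the gene's own strand, with CACGTG in capitals. The windows lie at chr1:165763508-165763757 (plus strand) for Creg1, chr7:142387828-142388077 (minus) for Ctsd, chrX:134601006-134601255 (minus) for Gla, chr8:3500269-3500518 (plus) for Mcoln1 and chr8:13158911-13159160 (plus) for Lamp1.
Creg1: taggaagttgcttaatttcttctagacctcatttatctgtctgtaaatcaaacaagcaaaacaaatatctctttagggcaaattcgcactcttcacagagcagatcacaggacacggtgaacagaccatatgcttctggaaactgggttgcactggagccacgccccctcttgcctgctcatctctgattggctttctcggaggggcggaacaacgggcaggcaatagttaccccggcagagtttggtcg
Ctsd: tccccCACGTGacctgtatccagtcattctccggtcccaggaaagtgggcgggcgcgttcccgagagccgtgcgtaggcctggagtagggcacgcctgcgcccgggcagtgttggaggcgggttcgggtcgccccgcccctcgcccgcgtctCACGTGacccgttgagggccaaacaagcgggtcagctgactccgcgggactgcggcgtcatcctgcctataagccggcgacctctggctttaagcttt
Gla: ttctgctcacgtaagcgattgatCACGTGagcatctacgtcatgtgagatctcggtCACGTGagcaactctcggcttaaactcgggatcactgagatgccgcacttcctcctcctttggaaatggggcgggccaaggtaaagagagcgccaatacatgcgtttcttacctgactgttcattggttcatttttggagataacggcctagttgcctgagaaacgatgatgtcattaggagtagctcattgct
Mcoln1: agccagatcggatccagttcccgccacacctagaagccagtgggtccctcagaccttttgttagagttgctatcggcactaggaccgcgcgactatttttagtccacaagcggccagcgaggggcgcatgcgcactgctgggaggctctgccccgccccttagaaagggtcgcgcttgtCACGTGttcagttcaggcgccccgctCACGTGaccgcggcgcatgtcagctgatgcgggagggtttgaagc
Lamp1: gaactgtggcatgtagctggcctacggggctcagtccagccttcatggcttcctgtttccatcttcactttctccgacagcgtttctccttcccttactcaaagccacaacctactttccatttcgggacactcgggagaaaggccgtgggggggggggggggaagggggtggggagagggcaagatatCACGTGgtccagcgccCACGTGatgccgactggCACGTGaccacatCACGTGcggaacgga

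The word was searched from 250 bases before to 50 after the start, and it reads the same on both strands. Of the 42 genes 33 had a window in the table, and 12 of these held CACGTG: Ctsa, Ctsd, Ctsl, Gla, Gaa, Glb1, Lamp1, Mcoln1, Atg14, Atg3, Atg5 and Atg7. Over all 27025 genes with a window, 8.09% held it, and over the 12060 of them that were tested on these arrays 10.9% did. Lysosome genes with Tfeb accounted for 8 of the 12, out of 17 with a window, and autophagosome genes for 4, out of 15. The longer word TCACGTGA, which contains the first, was found for Ctsa, Ctsd, Gla, Mcoln1 and Atg3, against 1.12% of all genes and 1.90% of tested genes. In Lamp1 the word occurred 4 times, beginning 61, 45, 28 and 15 bases before the start. The Creg1 window did not contain these letters.

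The values that check the samples come first. Cavin4 measured 5.38, 5.74 and 5.59 on the knockout arrays and 8.75, 8.62 and 8.07 on the wild-type arrays, so each array followed its label (log2 change -2.91, limma adjusted p = 0.012, from 9.17e-06 to 0.119 over the alternatives). Array medians lay between 4.60 and 4.71 and correlations between arrays from 0.985 to 0.989. The 9 cardiomyocyte markers summed to between 15.67 and 15.70 on the log2 scale in both genotypes. Knockout replicate 2 stood apart in atrial genes, with Myl7, the atrial myosin light chain, at 7.22 against 3.61 to 4.11 on the other 5 arrays and Myl4 at 8.67 against 5.41 to 5.61. Macrophages are rich in lysosomes, and their 12 markers, none of them under the filter, summed to 10.58 to 10.84 in the knockout against 10.67 to 11.09 in the wild type. C1qb, a complement gene of macrophages, was the 1 marker without overlap, 0.51 lower on the log2 scale. That is 8.33% of the 12, beside 18.7% of all named genes tested. The complement genes C1qa and C1qc overlapped at -0.17 and -0.18. Cd68, a lysosomal glycoprotein of macrophages, overlapped, with 5.86, 5.59 and 5.80 against 6.08, 5.72 and 6.40. In the mean 9 of the 12 were lower, beside 62.8% of named genes, and 3 were higher: Cx3cr1 at 0.01, Cd163 at 0.05 and Cd14 at 0.06.

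Creg1 encodes a secreted glycoprotein that also resides in lysosomes. Its signal was 9.12, 9.09 and 8.80 on the 3 knockout arrays and 9.57, 9.69 and 9.80 on the 3 wild-type arrays. Every knockout array was below every wild-type array, and knockout replicate 3 was the lowest. The means were 9.00 ± 0.18 and 9.69 ± 0.12 (SD, n = 3), a log2 difference of -0.68 or 1.61-fold. The difference was -0.58 without knockout replicate 3, -0.73 without knockout replicate 2 and -0.84 with age as a covariate. In whole ventricle, fewer cells of a type and less RNA per cell cannot be told apart.

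Of the other 41 genes none passed the adjusted threshold in limma over 24898 probe sets, where 0.00402% passed, and 9 had an unadjusted p under 0.05, 6 lower and 3 higher in the knockout. That number was 6 without knockout replicate 1 or 3, 5 without wild-type replicate 3 (3 lower, 2 higher) and 9 without knockout replicate 2. Without wild-type replicate 2 there were 8 lower and 0 higher, and without knockout replicate 1 or 3 there were 5 lower and 1 higher. The 9 are 22.0% of the 41, against 13.7% of all probe sets tested and 11.5% of the 15298 named genes. By non-overlap there were 11 genes, 9 lower and 2 higher, or 26.8% against 19.0% of probe sets and 18.7% of named genes. Lower genes outnumbered higher ones over the whole array in the deposited values, where 14.1% of named genes were lower without overlap and 4.64% higher. At an unadjusted p under 0.05 in limma, 9.02% of all probe sets were lower and 4.71% higher. These shares were 7.1% and 6.77% after quantile normalization, and 6.27% and 6.23% without wild-type replicate 1. In the mean 24 of the 41 were lower and 17 higher, while 62.8% of named genes were lower. After quantile normalization 20 of the 41 were lower and 21 higher. Without wild-type replicate 1 or without knockout replicate 2, 21 were lower and 20 higher. The 41 genes had a median log2 change of -0.03, and all probe sets tested one of -0.04. The smallest adjusted p was 0.155, for Lamp2.

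**Figure D1:**
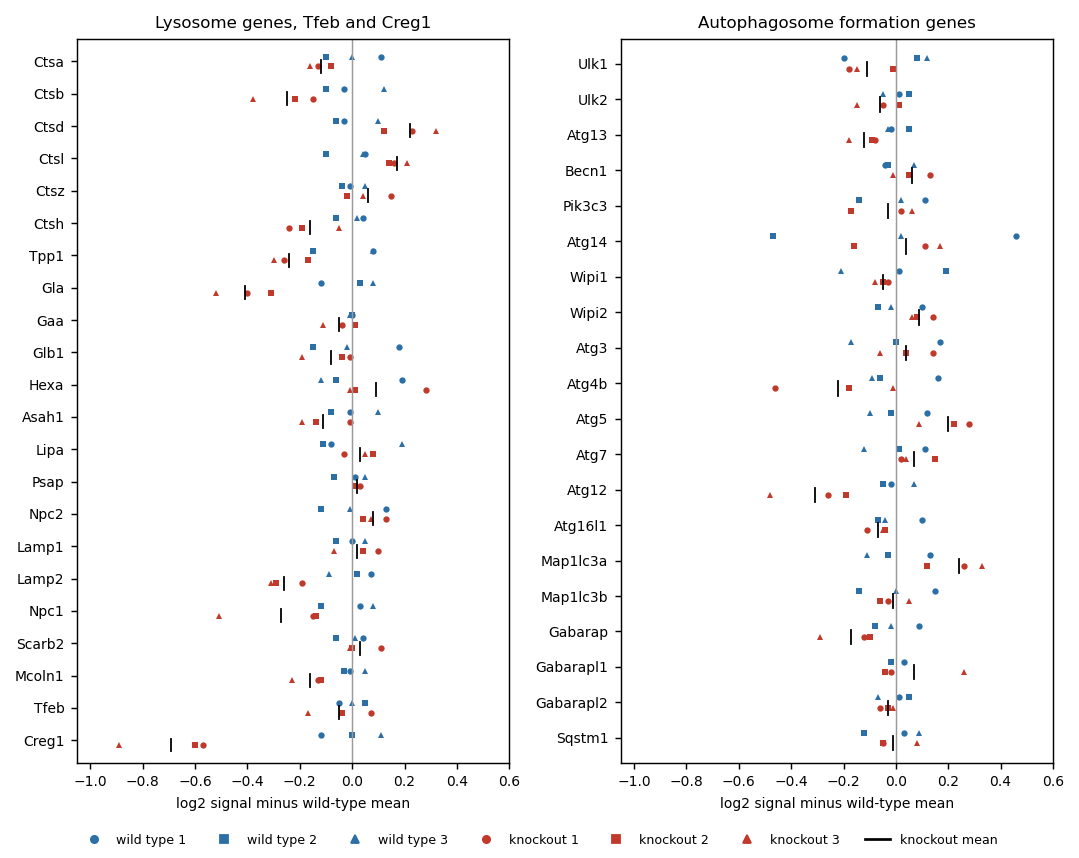
Signal of each of the 42 genes on each array, as the log2 value minus the gene's wild-type mean, with wild-type arrays in blue above and knockout arrays in red below on each row; symbols give the replicate number and black ticks the knockout mean. Creg1 lies farthest left with knockout arrays between 8.80 and 9.12, Gla and Atg12 follow among the lower genes, and Ctsd, Ctsl and Map1lc3a lie to the right.

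Of the 11 genes without overlap, 8 encode lysosomal enzymes or membrane proteins. Among the 20 genes of that kind, which leave out Creg1 and Tfeb, 11 were lower and 9 higher with a median log2 change of -0.06. The median was -0.02 without knockout replicate 3 or wild-type replicate 1 and -0.10 without wild-type replicate 2. At an unadjusted p under 0.05 there were 5 lower and 2 higher, 35.0% of the 20 beside 11.5% of named genes. By non-overlap 6 were lower and 2 higher, or 40.0% together beside 18.7% of named genes (14.1% lower and 4.64% higher).

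The proteases went both ways. Ctsb, a cysteine protease, measured 9.85, 9.78 and 9.62 in the knockout against 9.97, 9.90 and 10.12 in the wild type. All 3 knockout arrays were below the wild type, by 0.25 on average on the log2 scale (SE 0.08, adjusted p = 0.267). Ctsd, the main aspartic protease of lysosomes, measured 11.27, 11.16 and 11.36 against 11.01, 10.98 and 11.14. Its knockout arrays were all above the wild type, a log2 change of 0.22 (SE 0.07, adjusted p = 0.25). Ctsl, another cysteine protease, measured 8.39, 8.37 and 8.44 against 8.28, 8.13 and 8.27, again higher without overlap (0.17, SE 0.07, adjusted p = 0.31). Tpp1, a tripeptidyl peptidase whose human deficiency causes a neuronal storage disease, measured 7.67, 7.76 and 7.63 against 8.01, 7.78 and 8.01. It was lower without overlap by 0.25 (SE 0.08, adjusted p = 0.268), although knockout replicate 2 and wild-type replicate 2 were close. Ctsa, Ctsh and Ctsz overlapped between genotypes, with log2 changes of -0.13, -0.16 and 0.06.

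Among the 6 enzymes of glycans and lipids, Gla was the 1 gene without overlap, or 16.7% beside 18.7% of named genes. It encodes alpha-galactosidase A, the enzyme missing in Fabry disease, and measured 4.69, 4.78 and 4.57 in the knockout against 4.97, 5.12 and 5.17 in the wild type. The arrays did not overlap, and the log2 change of -0.41 (SE 0.10, 95% interval -0.65 to -0.16, adjusted p = 0.162) was the largest of the 41. Its signal was not far above the filter at 3.45, where background can compress a difference. Gaa, the acid alpha-glucosidase missing in Pompe disease, measured 8.60, 8.65 and 8.53 against 8.64, 8.64 and 8.63, with an interval of -0.18 to 0.09. Glb1, Hexa, Asah1 and Lipa, which degrade galactosides, gangliosides, ceramide and cholesteryl esters, overlapped with changes from -0.12 to 0.09. Psap, the precursor of the saposin cofactors, and Npc2, a carrier of cholesterol inside the lysosome, also overlapped, at 0.02 and 0.08.

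The 5 membrane proteins held 3 genes without overlap, all lower, or 60.0% beside 14.1% of named genes. Lamp2, a glycoprotein of the lysosomal membrane needed for autophagosome clearance in heart, measured 9.13, 9.03 and 9.01 in the knockout against 9.39, 9.34 and 9.23 in the wild type. The knockout arrays were lower by 0.26 (SE 0.07, 95% interval -0.42 to -0.11, adjusted p = 0.155). Lamp1, its close relative, measured 10.49, 10.43 and 10.32 against 10.39, 10.33 and 10.44, so the genotypes overlapped and the change was 0.03 (95% interval -0.12 to 0.17). The difference between the 2 changes was not tested. Mcoln1, the calcium channel of the lysosomal membrane, measured 7.46, 7.47 and 7.36 against 7.58, 7.56 and 7.64, lower by 0.16 (SE 0.06, adjusted p = 0.332). Npc1, which moves cholesterol out of lysosomes, measured 7.86, 7.87 and 7.50 against 8.04, 7.89 and 8.09. The Npc1 groups did not overlap, but its log2 change of -0.26 (adjusted p = 0.369) was -0.14 without knockout replicate 3. Scarb2, the receptor that carries glucocerebrosidase to lysosomes, measured a change of 0.04 with overlap.

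Tfeb itself measured 6.63, 6.52 and 6.39 in the knockout against 6.51, 6.61 and 6.56 in the wild type. The genotypes overlapped, and the change of -0.05 (95% interval -0.24 to 0.15) was 0.01 without knockout replicate 3. Genes that hold CACGTG in their window lay on both sides, with 2 lower and 2 higher without overlap among the 12. The 20 genes with a window but without the word, Creg1 left aside, held 4 lower and 0 higher, and among named genes 14.1% were lower and 4.64% higher without overlap. The difference between the groups of 12 and 20 was not tested. Over the tested genes of the whole array the median change was -0.04 with the word and -0.05 without it.

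**Figure D2:**
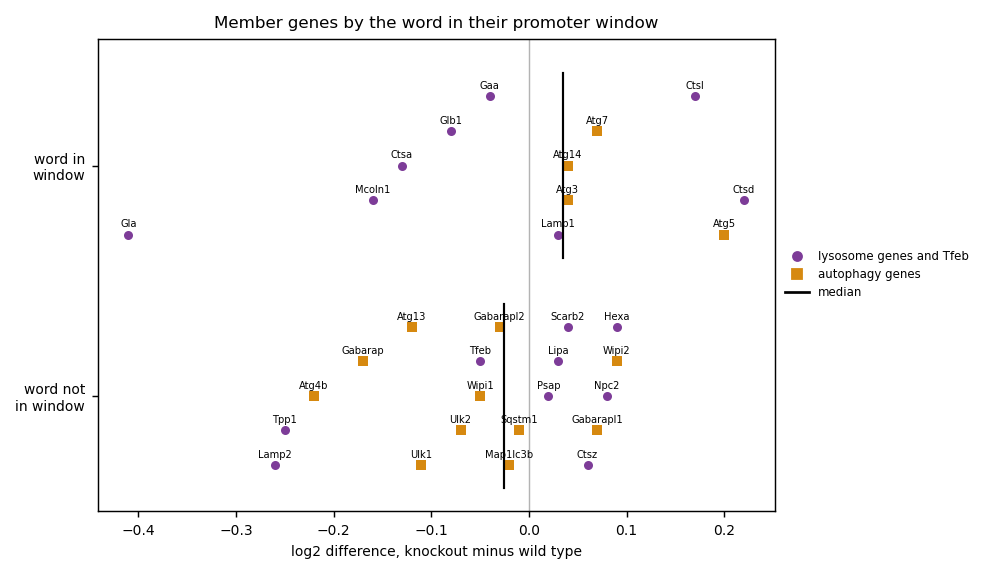
Log2 difference between knockout and wild type for the 32 genes other than Creg1 that have a promoter window, separated by whether the 6-letter word is in the window; circles are lysosome genes and Tfeb, squares autophagosome genes, and black lines medians of 0.04 and -0.02. The genes with the word run from Gla at -0.41 to Ctsd at 0.22.

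Genes of autophagosome formation overlapped between genotypes in 17 of 20 cases, with 15.0% not overlapping beside 18.7% of named genes. Of the 20 genes 12 were lower and 8 higher with a median log2 change of -0.02, and 1 lower and 1 higher had an unadjusted p under 0.05, which is 10.0% beside 11.5% of named genes. By non-overlap 3 were lower and 0 higher, where 14.1% of named genes were lower and 4.64% higher.

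The kinase complex starts the process. Ulk1, its kinase, measured 7.74, 7.91 and 7.77 in the knockout against 7.72, 8.00 and 8.04 in the wild type, with overlap and a change of -0.11 (95% interval -0.35 to 0.12). Atg13, a regulatory subunit, measured 7.85, 7.84 and 7.75 against 7.91, 7.98 and 7.90. The arrays did not overlap in the deposited values, and the gene was lower by 0.12 (SE 0.06, adjusted p = 0.473). Its log2 change was -0.06 after quantile normalization. Ulk2 overlapped at -0.07. Becn1, the beclin of the lipid kinase complex, measured 7.26, 7.18 and 7.12 against 7.09, 7.10 and 7.20, and Pik3c3, the lipid kinase, and Atg14, its targeting subunit, changed by -0.03 and 0.04, all with overlap. The phosphoinositide readers Wipi1 and Wipi2 overlapped at -0.05 and 0.09.

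The conjugation system couples ATG8 proteins to the growing membrane. Of its 6 genes Atg12 was the 1 without overlap, or 16.7% beside 18.7% of named genes. This ubiquitin-like protein is joined to ATG5, and its signal was 6.02, 6.09 and 5.80 in the knockout against 6.26, 6.23 and 6.35 in the wild type. It was lower without overlap, with a log2 change of -0.31 (SE 0.10, adjusted p = 0.239), and -0.23 without knockout replicate 3. Its partner Atg5 measured 6.20, 6.14 and 6.01 against 6.04, 5.90 and 5.82. Atg5 was higher by 0.20, but knockout replicate 3 lay below wild-type replicate 1 (adjusted p = 0.412). The activating and conjugating enzymes Atg7 and Atg3, the scaffold Atg16l1 and the protease Atg4b overlapped, at 0.07, 0.04, -0.06 and -0.22.

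The ATG8 proteins coat the autophagosome and bind its cargo receptors. Map1lc3a measured 9.58, 9.44 and 9.65 in the knockout against 9.45, 9.29 and 9.21 in the wild type. It was higher by 0.24 (SE 0.08, adjusted p = 0.281), with knockout replicate 2 just below wild-type replicate 1. Map1lc3b, the form most used as an autophagy marker, measured 9.31, 9.28 and 9.39 against 9.49, 9.20 and 9.34. Its change was -0.02 (95% interval -0.21 to 0.17), and a second probe set named for the gene gave 0.03. The RefSeq table lists several Map1lc3 pseudogenes, so signal of near-identical copies cannot be told apart here. Gabarap measured 10.91, 10.93 and 10.74 against 11.12, 10.95 and 11.01, lower without overlap by 0.17 (SE 0.07, adjusted p = 0.375) and by 0.11 without knockout replicate 3. Gabarapl1 measured 7.66, 7.64 and 7.94 against 7.71, 7.66 and 7.66, so only knockout replicate 3 exceeded the wild type, and Gabarapl2 overlapped at -0.03. Sqstm1, the receptor that brings ubiquitinated cargo to autophagosomes, measured 9.79, 9.79 and 9.92 against 9.87, 9.72 and 9.93, a change of -0.01 (95% interval -0.18 to 0.16).

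Averaged over each group on each array, lysosomal and autophagosome genes were not separated by genotype. With each gene centred on its mean over the 6 arrays, the 20 lysosomal genes averaged 0.01, -0.03 and -0.08 on the knockout arrays and 0.07, -0.04 and 0.07 on the wild-type arrays. The 20 autophagosome genes averaged -0.01, -0.02 and -0.01 against 0.09, -0.03 and -0.02. The genotypes overlapped in both, and wild-type replicate 2 lay within or below the range of the knockout arrays. Autophagosome minus lysosomal genes gave -0.01, 0.01 and 0.08 in the knockout against 0.02, 0.00 and -0.10 in the wild type, a difference of 0.05 beside an SD between arrays of 0.05. It was 0.10 with age as a covariate and 0.01 to 0.07 with 1 array left out. Macrophage markers averaged 0.01, -0.15 and -0.08 against 0.08, -0.11 and 0.25. Wild-type replicate 2 was the lowest wild-type array in both lists. Wild-type replicate 3 was the highest for the markers, while the lysosomal genes were at 0.07 on wild-type replicates 1 and 3 alike. These averages were taken without centring the arrays. Wild-type replicate 1 had the highest array median, 4.71 against 4.61 and 4.63 on wild-type replicates 2 and 3. The order of the arrays therefore also holds differences in array scale. The lowest knockout array was replicate 2 for the markers and replicate 3 for the lysosomal genes. The part of macrophages in the lysosomal values was not tested.

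**Figure D3:**
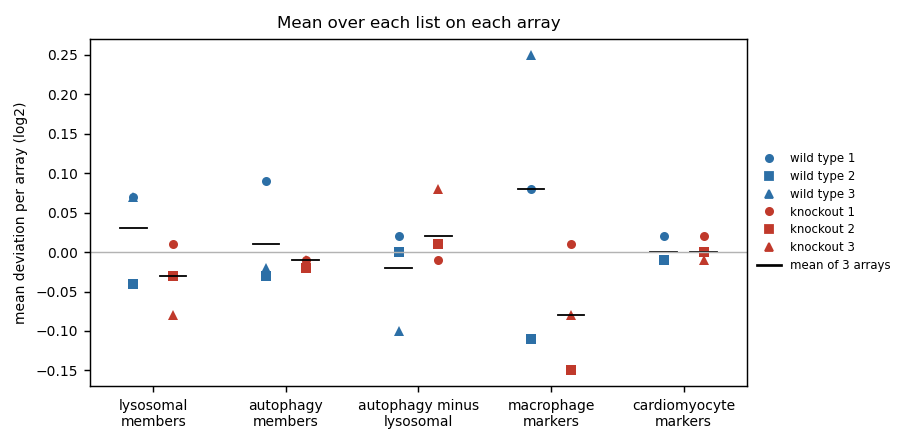
Mean deviation on the log2 scale over each list on each array, each gene centred on its mean over 6 arrays; blue points are wild-type and red points knockout arrays, symbols give the replicate and black lines the mean of 3. Lysosomal genes run from -0.08 to 0.07 and autophagosome genes from -0.03 to 0.09, with overlapping genotypes, while macrophage markers spread from -0.15 to 0.25.

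Among the 42 genes, knockout replicate 3 was the most extreme knockout array wherever the genotypes did not overlap. Its sample was 13 weeks old and those of knockout replicates 1 and 2 were 11. Within the knockout, this array and age cannot be told apart. Knockout replicate 3 was the lowest array for all 10 lower genes, Creg1 included, and the highest for both higher genes. Among named genes without overlap it was the lowest at 1266 of 2155 lower genes, or 58.7%, and the highest at 309 of 710 higher genes, or 43.5%. Its Cavin4 signal was not the lowest of the knockout arrays. Without that array the 9 lower genes other than Creg1 measured from -0.35 for Gla to -0.09 for Atg13, where non-overlap already fixes the sign.

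Further genes of the same pathways were taken from 9 lists. Beside the 114 tested, 8 had no probe set with that symbol alone and 1 was under the filter. None of the 114 passed the adjusted threshold in limma, while 23 were lower and 1 higher at an unadjusted p under 0.05, or 20.2% and 0.877%. The same shares over named genes were 8.97% lower and 2.50% higher. Without knockout replicate 3 there were 12 lower and 0 higher, beside 5.34% and 1.59% of named genes, and without knockout replicate 2 there were 20 lower and 5 higher, beside 7.29% and 2.20%. By non-overlap 34 were lower and 6 higher, or 35.1% together beside 18.7%, and the median log2 change was -0.06 beside -0.04 over all named genes.

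The lowest adjusted p belonged to Rragd, a Rag GTPase that recruits the growth kinase complex mTORC1 to lysosomes. It measured 8.09, 8.11 and 7.74 in the knockout against 8.59, 8.50 and 8.51 in the wild type, a log2 change of -0.55 (SE 0.10, adjusted p = 0.0919). Rheb, the GTPase that activates mTORC1 there, was lower by 0.33 (SE 0.08, adjusted p = 0.132), and Lamtor2, a subunit of the anchor that holds Rag GTPases, was higher by 0.26 (SE 0.08, adjusted p = 0.239). These 3 were the genes of that list with an unadjusted p under 0.05, or 20.0% beside 11.5% of named genes. The list's median over 15 tested was -0.02.

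Among 7 further receptors for selective autophagy, 2 were lower without overlap, or 28.6% beside 14.1% of named genes. Calcoco1, a receptor for endoplasmic reticulum, measured 9.71, 9.82 and 9.54 against 10.08, 10.10 and 10.02, a log2 change of -0.38 (SE 0.08, adjusted p = 0.112). Bnip3l, a mitochondrial receptor, was lower by 0.29 (SE 0.07, adjusted p = 0.155), a change of -0.24 as the mean of its 2 probe sets. Its relative Bnip3 overlapped at 0.18. Rab7, the GTPase of late endosomes needed for fusion with lysosomes, measured 8.97, 8.99 and 8.53 against 9.28, 9.22 and 9.36, a log2 change of -0.46 (SE 0.12, adjusted p = 0.186) that was -0.31 without knockout replicate 3. The fusion genes Vps33a and Stx17 measured -0.21 and -0.14. When probe sets listed in the annotation were tested alone, Rragd, Calcoco1 and Ctsc passed in limma (adjusted p = 0.0188, 0.0304 and 0.0429), which is 2.63% of the 114 beside 2.01% of all probe sets in that fit. With age as a covariate Rab7 passed (adjusted p = 0.0486), or 0.877% beside 0.137%. None of the 114 passed in the other 14 alternatives.

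Of 25 other lysosomal hydrolases 18 were lower in the mean, beside 62.8% of named genes, with a median of -0.09 beside -0.04. At an unadjusted p under 0.05 there were 6 lower and 0 higher, or 24.0% beside 11.5% of named genes. Ctsc, a dipeptidyl peptidase that activates proteases of leukocytes, measured 7.06, 7.01 and 6.84 against 7.36, 7.27 and 7.56 (log2 change -0.43, SE 0.10, adjusted p = 0.131). Ppt1, which removes palmitate from proteins, was lower by 0.28 (SE 0.06, adjusted p = 0.112), and Idua, which cleaves glycosaminoglycans, by 0.34 (SE 0.08, adjusted p = 0.127). Lysosomal membrane proteins outside the 42 had a median of -0.12 over 13 genes, with the sialic acid exporter Slc17a5 at -0.39, the potassium channel Tmem175 at -0.28 and the cystine exporter Ctns at -0.26. For the sorting of hydrolases to lysosomes, mostly by mannose 6-phosphate, all 5 genes tested were lower in the mean, beside 62.8% of named genes. Of these, 4 were lower without overlap, Sort1 among them, or 80.0% beside 14.1%. The sorting receptor Sort1, which acts independently of mannose 6-phosphate, and the tag-uncovering enzyme Nagpa were both at -0.29. The mannose 6-phosphate receptor Igf2r was at -0.10, and M6pr had no probe set with that symbol alone. Without wild-type replicate 1 Nagpa was at -0.18.

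The proton pump that acidifies lysosomes had a median of 0.01 over 14 subunits, 6 lower and 8 higher. Its subunit Atp6v1b2 and accessory protein Atp6ap1 were lower without overlap, at -0.24 and -0.16, or 14.3% beside 14.1% of named genes. Atp6v1f measured 0.11 with overlap. The other autophagosome formation genes had a median of -0.04 over 19, with 4 lower and 0 higher at an unadjusted p under 0.05, or 21.1% beside 11.5% of named genes. The phosphoinositide reader Wdr45 measured -0.34 (-0.21 without wild-type replicate 1), the kinase scaffold Rb1cc1 -0.20 and Atg9a, the lipid scramblase of autophagosome precursors, -0.19. Tfe3 and Mitf, relatives of Tfeb, overlapped at -0.13 and 0.00, but Mitf measured -0.19 as the mean of its 2 probe sets.

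**Figure D4:**
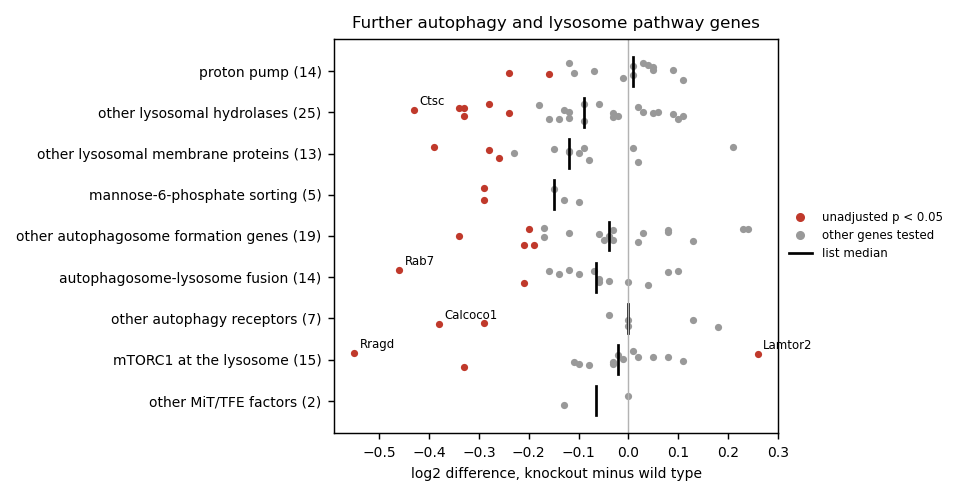
Log2 difference between knockout and wild type for each of the 114 further pathway genes tested, by list, with the number tested in parentheses; red points have an unadjusted p under 0.05, grey points do not, and black lines are list medians. Rragd at -0.55 and Rab7 at -0.46 lie farthest left, and Lamtor2 at 0.26 is the 1 red point on the right.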

How the data were processed

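The deposited table holds log2 signals of 35556 probe sets on 6 arrays. MAS5 appears, per the submitters' processing notes, with no role or version given, and the sources used here name no background correction, scaling or genome build. That the unit is log2 was read from the range of the values, 0.46 to 13.72. The values were used as deposited. Overlap between genotypes was judged on these values alone and was not checked after normalization. Names came from the platform annotation, which gave 1 symbol to 21789 probe sets, updated by gene identifier through RefSeq (21698 matched). Differences between genotypes were fitted with limma 3.58.1 under R 4.3.3 (lmFit, eBayes with an intensity trend), two-sided, over 24898 probe sets whose mean reached the 30th percentile, 3.45, with Benjamini-Hochberg adjustment at 0.05. The fitting code was run on simulated data with independent noise, which lack differences shared across an array. The number of arrays limits the precision. Genes given array by array are Creg1, 11 others named for their role, and every gene of the 42 without overlap or with an unadjusted p under 0.05. Gaa was also given array by array, outside that rule. Of the further lists, the 3 with the smallest p are named. Atg5 array by array, Myl7, Myl4, Cd68, C1qb, C1qa, C1qc, Cx3cr1, Cd163 and Cd14 were named after their values were seen. The 42 genes, the lists and the tests were chosen with earlier results of these data known. Same-numbered samples were not paired, since their deviations correlated at -0.059, 0.021 and -0.057. Alternatives were normalization, filter, probe sets, age, replicate block, trend, array weights and leaving out each array.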

Additional observations from a re-analysis of the deposited data

How the results depend on the processing

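None of the 41 genes other than Creg1 passed the adjusted threshold in limma in any of the 16 alternatives, and the lowest adjusted p was 0.074, for Gla. Their number with an unadjusted p under 0.05 was 7 to 11 under other processing and 5 to 9 with 1 array left out, where it was 5 without wild-type replicate 3 and 6 without knockout replicate 1 or 3. The number of all probe sets past the adjusted threshold was 34 with age as a covariate, 361 among annotated probe sets, 126 with array weights, 48 with the filter at the 50th percentile, 105 after median centring, 130 after quantile normalization and 0 to 12 with 1 array left out. With the replicate block it was 0, Cavin4 having an adjusted p of 0.0754, and no other probe set passed. Among the 114 further pathway genes, 24 had an unadjusted p under 0.05, and in a check chosen after seeing the data 25 did without knockout replicate 2 and 12 without knockout replicate 3. The median change of the lysosomal genes was -0.09 with age as a covariate and -0.03 after quantile normalization or with array weights. The median change of the autophagosome genes was 0.01 with age as a covariate, 0.02 after quantile normalization and -0.06 to 0.02 with 1 array left out. Changes near 0 turned sign. With age as a covariate Lipa measured -0.01, Lamp1 -0.05, and Pik3c3, Map1lc3b and Sqstm1 0.02 each. After quantile normalization Pik3c3 measured 0.01, Map1lc3b 0.03, and Gabarapl2 and Sqstm1 0.02. Sqstm1 measured 0.01 after median centring, Map1lc3b 0.01 with array weights or as the mean of its probe sets, and Gabarapl2 0.11 as the mean of its probe sets. With 1 array left out, Glb1 ran from -0.16 to 0.01, Lipa from -0.02 to 0.13, Psap from -0.01 to 0.05, Lamp1 from -0.01 to 0.07, Tfeb from -0.10 to 0.01, Pik3c3 from -0.10 to 0.04, Atg14 from -0.20 to 0.27, Wipi1 from -0.15 to 0.05, Atg3 from -0.04 to 0.12, Map1lc3b from -0.09 to 0.06, Gabarapl1 from -0.03 to 0.12 and Sqstm1 from -0.07 to 0.04. The causes were not tested. Dim probe sets such as those of Gla and Atg14 lie closest to background.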
